A study of Homo sapiens with 12 samples.

Results

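The factors that start and extend protein chains on the cytoplasmic ribosome were followed at the RNA level. They were taken as every protein-coding gene of the deposited table whose symbol in GENCODE release 44 begins with EIF or EEF. The annotation holds 72 such genes, of which 67 were among the 26058 genes of the table, and these 67 are described. EEF1G, EIF4E1B, EIF1AY and the readthrough genes EEF1E1-BLOC1S5 and EEF1AKMT4-ECE2 were not analysed here. All 67 had a mean of at least 0.5 RPKM (reads scaled by gene length and by the total reads of a library) and were tested, together with 22067 genes in all.

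RNA came from HEK293 cells, a human embryonic kidney line, either wild type (WT) or knocked out by CRISPR for PRKAA1 and PRKAA2, which encode the alternative catalytic subunits of the energy sensor AMPK (AMPK KO). Each line gave 3 groups of 2 libraries, numbered 2 and 3. Serum was withdrawn from every culture for 24 h beforehand. The treatments were solvent alone (WT DMSO, AMPK KO DMSO), solvent followed by 30 min of epidermal growth factor (WT DMSO+EGF, AMPK KO DMSO+EGF), or 25 µM cordycepin followed by EGF for the last 30 of 50 min (WT cordycepin+EGF, AMPK KO cordycepin+EGF). Cordycepin is adenosine without its 3′ hydroxyl, the position from which an RNA chain would grow. The EGF concentration was given as 15 in nM in one place and in µM in another. All 6 AMPK KO libraries came from the same knockout line, so that loss of AMPK and any other difference between the lines cannot be told apart. Whether that line was a single clone was not given in the sources used here.

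Initiation begins when eIF2 brings the initiator methionyl-tRNA to the small ribosomal subunit, helped by eIF1, eIF1A, eIF5 and the large scaffold eIF3. The eIF4 factors bind the cap and unwind the mRNA leader. eIF5B joins the large subunit, eEF1A then delivers each aminoacyl-tRNA and eEF2 moves the ribosome on by a codon. The route is throttled at a few known places. Kinases of eIF2 block its recycling by eIF2B, the eIF4E-binding proteins keep eIF4E from eIF4G when mTORC1 is inactive, and eEF2 kinase, which AMPK can activate, inactivates eEF2. Most of this control acts on the proteins, which were not measured here.

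Many mRNAs for these factors begin with a 5′ terminal oligopyrimidine (TOP) tract, by which mTORC1 controls their translation. The starts of the genes to which the results below return are printed from RefSeq (GRCh38.p14), with 10 bases before the annotated start and 20 from it. Capitals mark a C at the start followed by at least 4 further C or T bases.
EEF1A1 (chr6:73521013-73521042, minus strand): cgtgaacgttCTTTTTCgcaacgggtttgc
EEF2 (chr19:3985444-3985473, minus strand): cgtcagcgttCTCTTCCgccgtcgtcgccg
EEF1B2 (chr2:206159885-206159914, plus strand): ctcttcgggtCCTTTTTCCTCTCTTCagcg
EIF3D (chr22:36529147-36529176, minus strand): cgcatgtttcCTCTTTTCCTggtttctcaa
EIF3M (chr11:32583821-32583850, plus strand): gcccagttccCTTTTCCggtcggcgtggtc
EIF4B (chr12:53006446-53006475, plus strand): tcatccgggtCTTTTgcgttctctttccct
EIF4E2 (chr2:232550679-232550708, plus strand): agcggaagtcactccctgaggcagtggcga
EIF1B (chr3:40309697-40309726, plus strand): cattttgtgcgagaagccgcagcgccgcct
EIF1AX (chrX:20141819-20141848, minus strand): gagtcgcggcgccatttgctgccgccgagc
The first 6 carry the tract and the last 3, shown for contrast, do not. EEF1B2 has another annotated start upstream without it. RefSeq starts were matched for 53 of the 67 genes, and 13 of the 53 (24.5%) had the tract at a start, against 5.14% of all genes in the RefSeq table. The search used the strand of the gene and only the annotated first base. The 13 were EEF1A1, EEF1B2, EEF2, EIF2A, EIF2D, EIF2S3, EIF2S3B, EIF3D, EIF3F, EIF3K, EIF3M, EIF4A2 and EIF4B.

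Depth was uneven. Reads recovered on annotated genes came to 4013043 in WT DMSO 3 and to between 12691500 and 26475392 in the other libraries. The WT DMSO replicates correlated less well over genes (r = 0.918) than those of the other groups (0.961 to 0.977). PRKAA1, one of both catalytic subunit genes targeted in the knockout, was listed at 11.2 to 22.0 scaled RPKM in WT and 7.20 to 8.68 in AMPK KO. It was called lower in AMPK KO over the 3 treatments (log2 fold change -0.96 ± 0.10 SE, adjusted p = 0.00201), and PRKAA2 had -0.48 ± 0.12 (adjusted p = 0.0547). The keratins KRT8 and KRT18 and VIM, which HEK293 cells express, were present in all libraries. NEFM, looked at together with them, was nearly absent, at 0.341 scaled RPKM or less. The leukocyte gene PTPRC was at 0.0607 scaled RPKM or less. COL1A1, looked at together with PTPRC, was low but not absent, with means of 0.896 in WT and 0.527 in AMPK KO.

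Levels are given as RPKM scaled to a common upper quartile, which is per length of gene. The length is that of all annotated exons together, so that levels of different genes also depend on the annotation. EIF3E, with 37761 such bases, and EIF3D, with 3813, had 6547 and 5498 reads in WT DMSO 2 but 10.2 and 85.1 scaled RPKM. Over the 12 libraries the factor genes had a median level of 20.0 scaled RPKM, against 6.0 for all protein-coding genes tested, and 43 of the 67 had a mean of at least 10. EEF2, the translocase, had the highest level, with a mean of 763. EIF4G1, the eIF4F scaffold, followed at 135, and EIF3K (133), EEF1A1 (123) and EIF5A (108) were the only others above 100. The lowest were EEF1AKMT2 (0.659), a methyltransferase of eEF1A, and EIF2AK3 (1.49), the endoplasmic reticulum stress kinase PERK. EEF2 and its kinase together took 24.3% to 28.6% of the summed level of the 67 genes, and the 14 eIF3 genes took 21.5% to 24.4%.

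**Figure D1:**
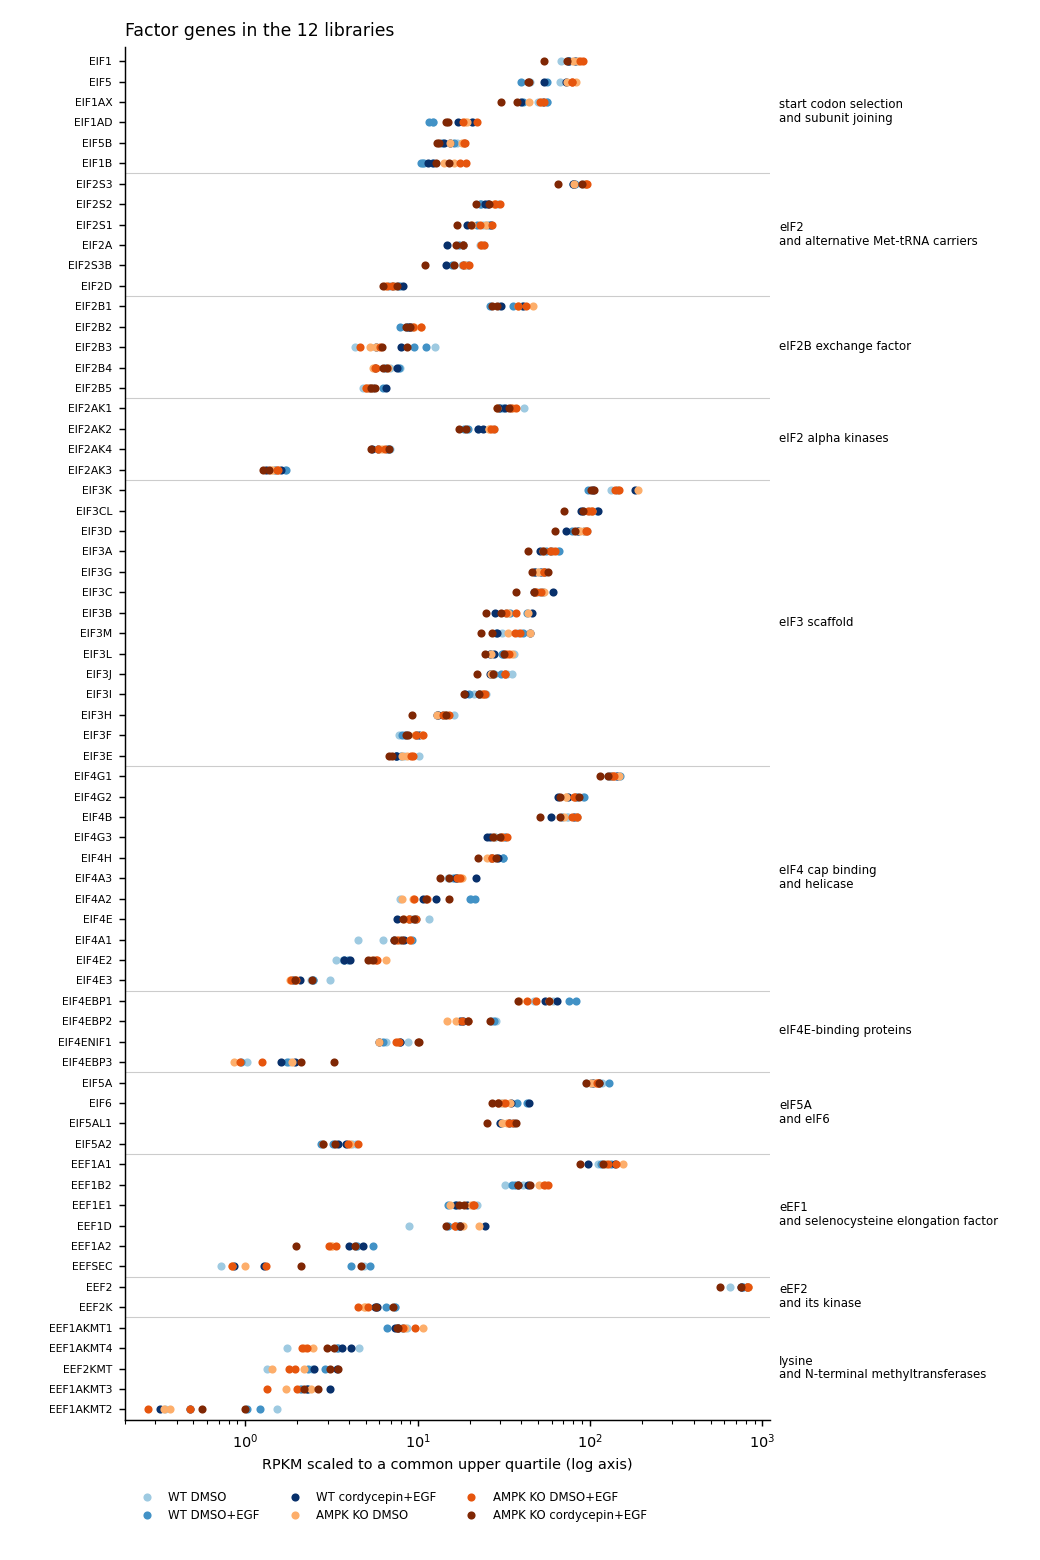
Level of each of the 67 factor genes (rows, ordered by role and mean) in scaled RPKM on a log axis, with 1 point for each of the 12 libraries, coloured by group. Levels spread from a mean of 0.659 for EEF1AKMT2 to one of 763 for EEF2, and most genes held a narrow range over the libraries, with EEFSEC as the widest at 7.29-fold.

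Several levels depend on how reads were divided between near-identical copies. Pseudogenes named after a factor gene were listed for 19 of the 67 genes, 65 pseudogenes in all, and for 9 genes they held a median of over 10% of the joint reads. EIF4A1, the main helicase of eIF4F, had 82.9% of the joint reads on 7 pseudogenes. EEF1A1 had 76.6% on 19, EIF2S2 59.4%, EEF1B2 46.5%, EIF3F 36.9%, EIF4E 32.6% and EIF4B 32.3%. The printed levels of these genes are therefore uncertain, and EEF1A1 in particular is listed below EEF2 only as far as the division of reads goes. The pairs EIF3C and EIF3CL, EIF2S3 and EIF2S3B, and EIF5A and EIF5AL1 are near-identical copies and are likewise uncertain. In all counts of genes given here each copy stands as a separate gene, although the copies of a pair are not independent. EIF4EBP3 shares 73.2% of its exon bases with the readthrough gene ANKHD1-EIF4EBP3, EEF1AKMT4 shares 49.2% with EEF1AKMT4-ECE2, and EIF4A1 shares 47.4% with genes that include SENP3-EIF4A1.

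**Figure D2:**
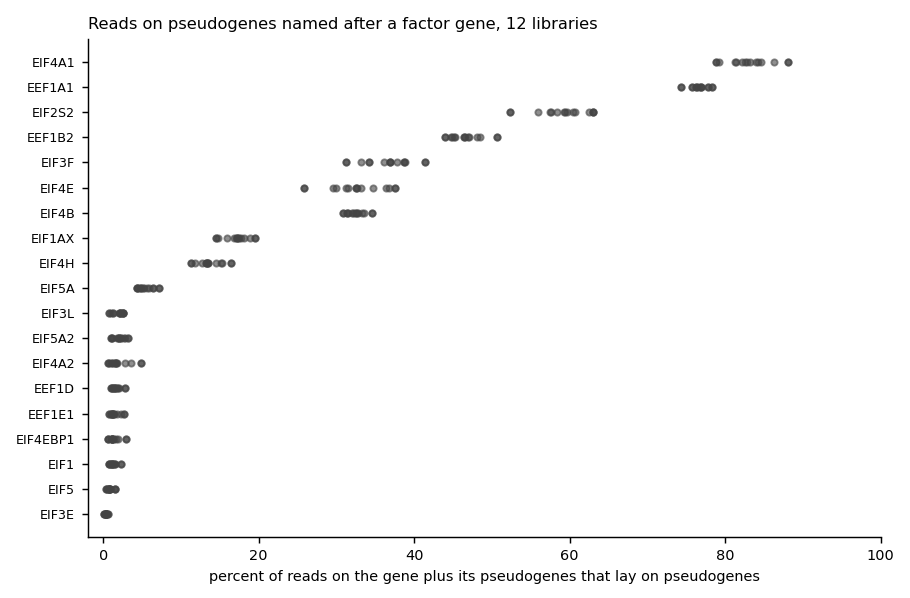
Share of reads, in percent, that lay on pseudogenes among the reads of a factor gene and its pseudogenes. Rows are the 19 factor genes with a listed pseudogene. The points of a row are the 12 libraries, and their lowest, median and highest share are drawn as further points. The share was at 74.3% or above in every library for EIF4A1 and EEF1A1 and at 7.13% or below for the 10 lowest genes.

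The lines were compared first, to ask which factors differ in cells without AMPK whatever the treatment. Over the 3 treatments 3 factor genes were higher in AMPK KO and none was called lower. They were EIF4E2, a cap-binding relative of eIF4E known for repressing mRNAs, EIF1B, a paralogue of the start codon factor EIF1, and EEF1B2, the exchange factor subunit that recharges eEF1A with GTP. The differences were modest, between 1.31-fold and 1.45-fold. The 3 of 67 stand against 4.34% of all genes called in this comparison, so that factor genes were called about as often as others. At an unadjusted p under 0.05 there were 7 factor genes, 3 higher and 4 lower, against 20.4% of all genes.

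EIF4E2 (ENSG00000135930, chromosome 2, 232550659 to 232583644) was at 3.70 and 3.34 scaled RPKM in the 2 WT DMSO libraries, 3.93 and 3.74 in WT DMSO+EGF and 3.74 and 4.05 in WT cordycepin+EGF. In AMPK KO it was at 5.33 and 6.52 with DMSO, 5.69 and 5.80 with DMSO+EGF and 5.53 and 5.14 with cordycepin+EGF. Every AMPK KO library was above every WT library. Its log2 fold change of 0.54 ± 0.08 (SE) had an adjusted p of 0.00891, and it was called without any 1 of the 12 libraries (adjusted p from 0.00969 to 0.0436). With DMSO alone the log2 fold change was 0.67 ± 0.14 (adjusted p = 0.0629), and leaving out 1 library gave 0.54 to 0.81 (adjusted p from 0.0414 without WT DMSO 3 to 0.384 without AMPK KO DMSO 3). Of its exon bases, 10.4% are also covered by an antisense gene.

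EIF1B (ENSG00000114784, chromosome 3, 40309707 to 40312424) was at 10.9 and 12.1 scaled RPKM in WT DMSO, 10.8 and 10.4 in WT DMSO+EGF and 12.3 and 11.5 in WT cordycepin+EGF. In AMPK KO it was at 16.2 and 14.2 with DMSO, 17.6 and 19.0 with DMSO+EGF and 12.7 and 15.2 with cordycepin+EGF. Here too no AMPK KO library was as low as a WT library. The log2 fold change was 0.45 ± 0.07 (adjusted p = 0.0113), and without AMPK KO DMSO+EGF 3 it was 0.44 (adjusted p = 0.0554). EIF4E2 and EIF1B were the 2 factor genes whose lines did not overlap (2.99% of 67), where 2.66% of all genes had 6 libraries of one line beyond the 6 of the other. EIF1 itself was at 67.9 to 84.0 scaled RPKM in WT and 54.0 to 90.5 in AMPK KO, with a log2 fold change of 0.02 ± 0.09.

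EEF1B2 (ENSG00000114942, chromosome 2, 206159585 to 206162928) was at 32.0 and 40.9 scaled RPKM in WT DMSO, 35.1 and 36.8 in WT DMSO+EGF and 38.3 and 43.5 in WT cordycepin+EGF. In AMPK KO it was at 50.7 and 54.9 with DMSO and 56.8 and 54.1 with DMSO+EGF, above all WT libraries, and at 38.4 and 44.6 with cordycepin+EGF, where the lower library was within the WT range. The log2 fold change over the treatments was 0.39 ± 0.08 (adjusted p = 0.0312). This call is the least secure of the 3. It was lost, with adjusted p from 0.0622 to 0.104, without WT DMSO+EGF 2, WT DMSO+EGF 3, WT cordycepin+EGF 2, AMPK KO DMSO 2, AMPK KO DMSO 3, AMPK KO DMSO+EGF 2, AMPK KO DMSO+EGF 3 or AMPK KO cordycepin+EGF 3, each left out alone, and log2 fold changes then ran from 0.36 to 0.41. With the reads of its 5 pseudogenes added to the gene, an alternative chosen after seeing the data, the log2 fold change was 0.37 (adjusted p = 0.0491).

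**Figure D3:**
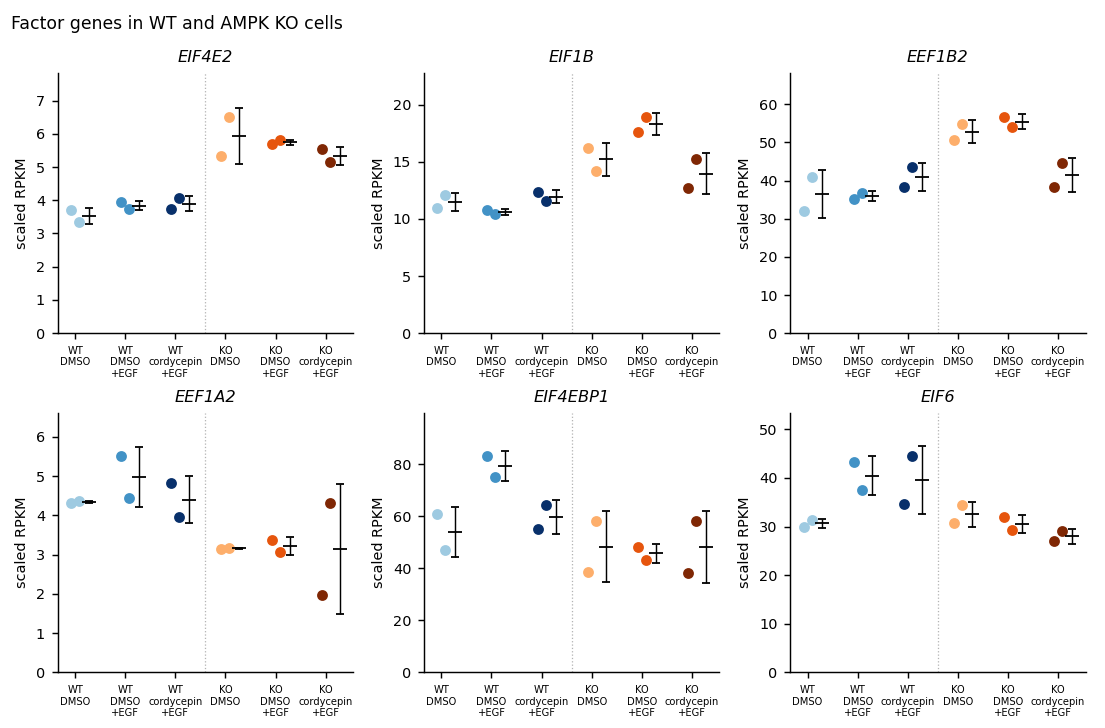
Level in scaled RPKM of 6 factor genes in the 6 groups; coloured points are the 2 libraries of a group and the black mark beside them is the group mean with its SD. EIF4E2 and EIF1B were higher in every AMPK KO library than in any WT library, EEF1B2 overlapped between the lines in the cordycepin+EGF group, and EEF1A2, EIF4EBP1 and EIF6 were not called.

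The 4 genes on the other side at an unadjusted p under 0.05 were EEF1A2, EIF4EBP1, EIF6 and EEF2K. EEF1A2, the eEF1A isoform typical of nerve and muscle, was at 3.97 to 5.51 scaled RPKM in WT and 1.97 to 4.30 in AMPK KO, with a log2 fold change of -0.49 ± 0.16 (adjusted p = 0.125). EIF4EBP1, the main eIF4E-binding protein, was at 47.0 to 83.2 and 38.3 to 58.0 (-0.43 ± 0.14, adjusted p = 0.125). Both were called when the recovered reads were tested with limma's voom method (adjusted p = 0.0307 and 0.0260), which also called EIF4A2 (-0.52, adjusted p = 0.0404). Voom called 6 factor genes here in all, where it called 10.4% of all genes. EIF6, which keeps the large ribosomal subunit from joining early, had -0.26 ± 0.08, and EEF2K had -0.24 ± 0.09. The lines overlapped for each of these 4 genes.

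With DMSO alone, AMPK KO and WT were compared in 2 libraries each, and no factor gene was called, against 0.44% of all genes. At an unadjusted p under 0.05 there were 10 factor genes, 6 higher and 4 lower, against 21.3% of all genes. The largest positive values were EEF1D, another eEF1B subunit (0.68 ± 0.28), EIF4E2 and EIF4A1 (0.61 ± 0.18). EIF4A1 had 0.23 with the reads of its pseudogenes added. Among these 10 genes the largest negative values were EIF4EBP2 (-0.53 ± 0.20), EIF4E3, a further eIF4E relative (-0.44 ± 0.17), and EEF2K (-0.38 ± 0.16). Over all 67 genes, whatever their p, the lowest value was -0.86. Voom called 5, with EEF1B2, EIF4E2 and EEF1D higher and EIF4E3 and EIF4EBP2 lower, where it called 8.32% of all genes. These values depended on which WT DMSO library was used. Without WT DMSO 2 they were 0.21 for EEF1D, 0.83 for EIF4A1, -0.21 for EIF4EBP2, -0.29 for EIF4E3 and -0.22 for EEF2K, and none was called. Without WT DMSO 3 they were 1.15 for EEF1D, 0.39 for EIF4A1, -0.84 for EIF4EBP2, -0.59 for EIF4E3 and -0.54 for EEF2K. In the latter fit limma called 13.8% of all genes and 9 of the factor genes: EEF1B2, EIF4E2, EEF1D and EIF1AD (a gene with an eIF1A domain) were higher, and EEFSEC, EEF1AKMT2, EIF2B3, EIF4A2 and EIF4EBP2 lower.

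Whether 30 min of EGF changed the factor genes was asked in each line, and no change was detected at this depth. In WT none of the 67 was called, against 0.0227% of all genes, and 7 had an unadjusted p under 0.05, against 9.72%. Voom called none either. EIF4A1, uncertain for the reason above, was at 6.31 and 4.53 scaled RPKM with DMSO and at 7.95 and 9.30 with DMSO+EGF (log2 fold change 0.64 ± 0.18, adjusted p = 0.438). With the reads of its pseudogenes added the value was 0.11, and without WT DMSO 3 it was 0.42. EIF4EBP1 was at 60.7 and 47.0 and then at 83.2 and 75.1 (0.56 ± 0.24), and EIF6 at 29.9 and 31.3 and then at 43.3 and 37.6 (0.39 ± 0.14). On the other side, EIF5A2, the less widespread eIF5A, had -0.45 ± 0.19, EEF1E1, a scaffold of the tRNA synthetase complex, -0.44 ± 0.14, and the initiator tRNA carrier EIF2A -0.40 ± 0.14. Without WT DMSO 2, which leaves only the shallow library as the control, limma called 5 factor genes (EEFSEC, EIF4A2, EIF4A1, EIF1AD and EIF2AK2) and 3.19% of all genes.

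In AMPK KO, too, EGF left the factor genes without a call. None of the 67 was called, against 0.0136% of all genes, none had an unadjusted p under 0.05, against 2.42%, and voom gave 0 and 0. The factor genes had a median log2 fold change of 0.05, with 44 of the 67 above 0. EIF4A1 was at 7.82 and 9.07 scaled RPKM with DMSO and at 9.05 and 7.57 with DMSO+EGF. EIF4EBP1 was at 38.7 and 58.0 and then at 48.3 and 43.1, so that the replicates differed by more than the groups. The difference between the lines in the response to EGF was tested as an interaction. No factor gene passed and no gene of the table did (0%), while 9 factor genes had an unadjusted p under 0.05, against 8.69% of all genes, and voom called none. The difference was -0.48 ± 0.20 on the log2 scale for EIF6 and 0.73 ± 0.26 for EIF5A2.

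Cordycepin was compared with DMSO in EGF-treated cells. In AMPK KO the factor genes were mostly lower, although no single gene passed the test. Of the 67, 51 had a negative log2 fold change and the median was -0.21, where it was 0.06 over all genes tested and -0.03 over protein-coding genes. None was called, against 0.471% of all genes. At an unadjusted p under 0.05 there were 21, against 21.8%, of which 18 were lower, against 10.1% of all genes on that side. Voom on the recovered reads called 2, both lower, EIF5 (-0.76, adjusted p = 0.0330) and EIF2AK2 (-0.49, adjusted p = 0.0309), with 46 of 65 genes negative and a median of -0.16. It called 4.95% of all genes. With RPKM as deposited and with median-ratio scaling 53 genes were negative, with medians of -0.26 and -0.27.

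The start codon and subunit joining factors had the lowest median of the groups by role that had at least 4 genes, at -0.49. All 6 were negative, and 5 were lower at an unadjusted p under 0.05, against 10.1% of all genes. EIF5, the protein that triggers GTP hydrolysis by eIF2 at the start codon, was at 78.1 and 78.8 scaled RPKM with DMSO+EGF and at 44.4 and 43.8 with cordycepin+EGF in AMPK KO. The 2 pairs did not overlap and the replicates lay within 1 unit of each other (log2 fold change -0.82 ± 0.23, adjusted p = 0.101). In WT the same gene was at 39.7 and 56.1 with DMSO+EGF and at 54.2 and 72.4 with cordycepin+EGF (0.40 ± 0.23). EIF1AX, the tRNA-positioning factor eIF1A, was at 54.3 and 51.4 and then 30.2 and 37.7 in AMPK KO (-0.64 ± 0.20). EIF1 had -0.49 ± 0.16, EIF5B -0.49 ± 0.12 and EIF1B -0.38 ± 0.12.

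All 14 eIF3 genes were negative in AMPK KO, with a median of -0.33. At an unadjusted p under 0.05, 5 were lower, against 10.1% of all genes. EIF3A, the largest scaffold subunit, was at 62.5 and 58.8 scaled RPKM with DMSO+EGF and at 43.7 and 53.0 with cordycepin+EGF (-0.33 ± 0.14). EIF3E was at 9.20 and 9.35 and then at 6.82 and 7.06 (-0.39 ± 0.12), and EIF3M at 39.4 and 36.6 and then at 23.2 and 26.9 (-0.60 ± 0.25). For 12 of the 14 both cordycepin+EGF libraries were below both DMSO+EGF libraries, which held for 27% of all genes. The near-identical copies EIF3C and EIF3CL were both among the 12.

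Of the eIF2 group 5 of 6 were negative (median -0.37). At an unadjusted p under 0.05, 4 were lower, against 10.1% of all genes. EIF2S1, the alpha subunit that the stress kinases phosphorylate, was at 27.1 and 23.1 scaled RPKM and then at 16.9 and 20.5 (-0.41 ± 0.18). All 4 eIF2 kinases were negative, and EIF2AK2, the double-stranded RNA sensor PKR, was at 26.5 and 27.5 and then at 17.4 and 19.2 (-0.55 ± 0.12, adjusted p = 0.0672). Its kinase relatives EIF2AK3 (-0.16 ± 0.16) and EIF2AK4, the amino acid sensor GCN2 (-0.03 ± 0.14), were closer to 0. Of the eIF2B exchange factor, EIF2B1 had -0.52 ± 0.21, while EIF2B5, the catalytic subunit, had 0.10 ± 0.14.

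The cap-binding eIF4 genes stayed nearer to 0, with a median of -0.10. At an unadjusted p under 0.05, 1 of 11 was lower, EIF4B (-0.47 ± 0.19), against 10.1% of all genes. EIF4G1 had -0.18 ± 0.13, EIF4E -0.07 ± 0.14 and EIF4A1 -0.11 ± 0.18. The 4 eIF4E-binding proteins were all positive in AMPK KO (median 0.32). EIF4EBP3 had 0.98 ± 0.35 (adjusted p = 0.16) and was at 0.931 and 1.25 and then at 3.26 and 2.10 scaled RPKM, with as few as 5 reads in a library. EIF4EBP1 had 0.05 ± 0.24 and EIF4EBP2 0.26 ± 0.20. EIF5A had -0.09 ± 0.16 and EIF6 -0.12 ± 0.14.

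Among the elongation factors, EEF2 was at 819 and 825 scaled RPKM with DMSO+EGF and at 567 and 755 with cordycepin+EGF in AMPK KO (-0.33 ± 0.24). EEF1A1 was at 142 and 127 and then at 87.6 and 120 (-0.39 ± 0.22), and EEF1B2 had -0.42 ± 0.14 (adjusted p = 0.141). EEF2K was at 5.17 and 4.49 and then at 5.77 and 7.21 (0.39 ± 0.16, or 0.24 without AMPK KO cordycepin+EGF 3). EEF2KMT, the methyltransferase of eEF2, was at 1.94 and 1.79 and then at 3.08 and 3.46 (0.67 ± 0.27). Of the 5 methyltransferases, genes of low level, 4 were positive.

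The size of these values depended on the library. AMPK KO cordycepin+EGF 2 was below both DMSO+EGF libraries for 51 of the 67 genes and AMPK KO cordycepin+EGF 3 for 42. For 40 genes (59.7%) both were, where the same held for 27% of all genes. Without replicate 2 the median log2 fold change was -0.12, and without replicate 3 it was -0.31. Replicate 2 also had the lowest summed level of the 67 genes, 2221 scaled RPKM, where the highest was 3086 in AMPK KO DMSO+EGF. In bulk RNA, a lower level in every cell and fewer cells with the RNA cannot be told apart.

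The values also went with level. Across the 67 genes, Spearman's rho between mean RPKM and the log2 fold change for cordycepin in AMPK KO was -0.58, and across all protein-coding genes tested it was -0.50. Genes are not independent replicates, and these are descriptions. Of the 13 genes with the TOP tract 11 were negative, with a median of -0.41. At an unadjusted p under 0.05, 6 were lower, against 10.1% of all genes. Of the 40 genes with a RefSeq start and no tract 29 were negative, with a median of -0.16, and at an unadjusted p under 0.05 there were 9 lower and 2 higher. The 13 also had the higher level, with a median of 43.8 scaled RPKM against 16.8, and the part of level in this difference was not tested. In a list of known TOP mRNAs, 8 of the 9 genes were in the table, all 8 were negative and their median was -0.36.

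In WT the factor genes lay on both sides of 0. None of the 67 was called, against 0.00453% of all genes, and 8 had an unadjusted p under 0.05 (3 higher and 5 lower), against 16% of all genes. The median was -0.04, with 41 negative, and without WT cordycepin+EGF 2 it was 0.07 with 28 negative. It was also above 0 without WT DMSO+EGF 3 (0.01) and with voom (0.01). Both cordycepin+EGF libraries were below both DMSO+EGF libraries for 17 genes (25.4%), where this held for 24.7% of all genes. EEFSEC, the factor that delivers selenocysteine, had the lowest value (-1.73 ± 0.60, adjusted p = 0.273), and voom called it (-2.06, adjusted p = 0.0388) and EIF1AD (0.69, adjusted p = 0.0473), where it called 3.66% of all genes. EIF4A2 had -0.80 ± 0.35 and EIF4EBP2 -0.58 ± 0.20. EIF1AD had 0.63 ± 0.22, EIF2AK2 0.28 ± 0.12 and EIF3F 0.26 ± 0.11. EEF2 was at 759 and 775 scaled RPKM with DMSO+EGF and at 749 and 808 with cordycepin+EGF.

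**Figure D4:**
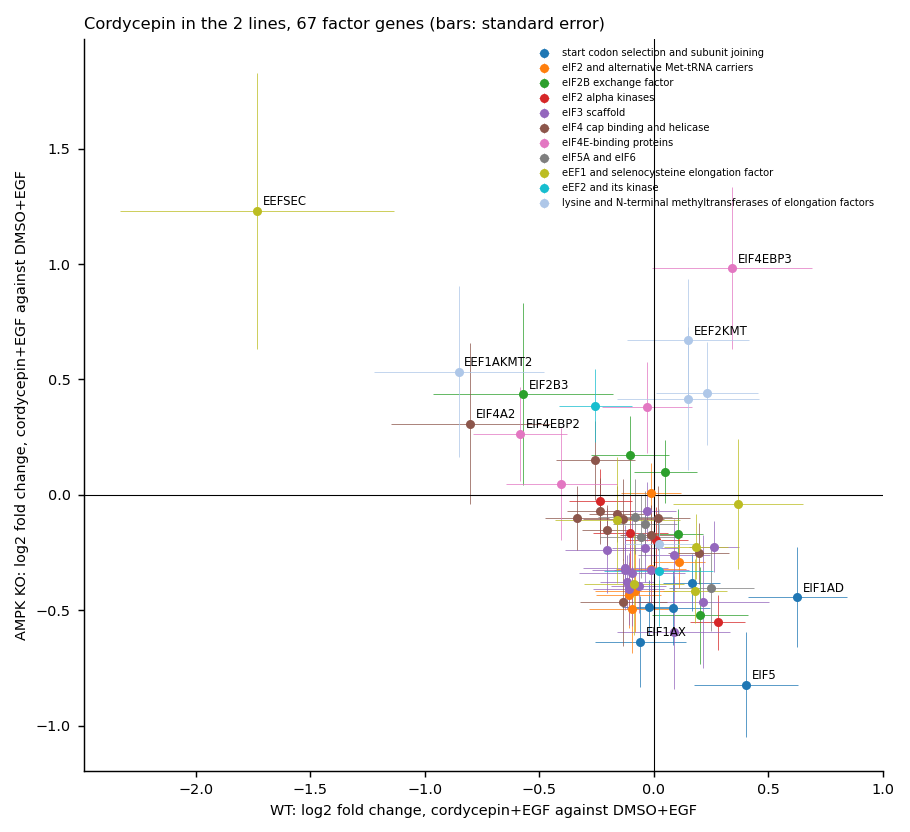
Log2 fold change for cordycepin+EGF against DMSO+EGF in WT (horizontal axis) and AMPK KO (vertical axis) for the 67 factor genes, coloured by role, with standard errors as bars. Most points lie below 0 on the AMPK KO axis, between -0.6 and 0, and on both sides of 0 on the WT axis; EEFSEC is at -1.73 in WT and 1.23 in AMPK KO.

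The difference between the lines in the response to cordycepin was tested as an interaction. No factor gene and no other gene passed (0%). At an unadjusted p under 0.05 there were 16 factor genes, against 21.4% of all genes. For 12 of them the log2 fold change for cordycepin was lower in AMPK KO than in WT, against 10.5% of all genes on that side. The median difference over the 67 was -0.20 on the log2 scale. Without AMPK KO cordycepin+EGF 2 it was -0.08, without WT cordycepin+EGF 3 it was -0.10, and without AMPK KO cordycepin+EGF 3 it was -0.34. EIF5 had -1.23 ± 0.32 (adjusted p = 0.123), EIF1AD -1.07 ± 0.31 (adjusted p = 0.131) and EIF2AK2 -0.83 ± 0.17 (adjusted p = 0.122), while EEFSEC had 2.96 ± 0.85 (adjusted p = 0.132). Voom called 7 (EIF5, EIF1AD, EIF2AK2, EIF4EBP2, EIF4A2, EEF2K and EEFSEC, adjusted p from 0.00991 to 0.0473) and 10.3% of all genes. A fit of only the 4 groups compared called 3 (EEFSEC, EIF1AD and EIF2AK2) and 5.11% of all genes.

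Averaged over both lines, cordycepin gave 56 negative factor genes and a median of -0.13, where the median of all genes was 0.02. None was called, against 0.965% of all genes, and voom called none. At an unadjusted p under 0.05 there were 9, against 15.2%, and 8 were lower, against 5.25% of all genes on that side. Without AMPK KO cordycepin+EGF 2 the median was -0.05, and with voom it was -0.07 with 47 of 65 genes negative. EIF1AX had -0.35 ± 0.14 (adjusted p = 0.291), EIF2A -0.27 ± 0.10, EIF3D -0.26 ± 0.11 (-0.17 without AMPK KO cordycepin+EGF 2) and EIF4EBP3 0.66 ± 0.25. Of the eIF3 genes 13 of 14 were negative, and of the eIF4 genes 11 of 11. The averaged values also went with level. Spearman's rho with mean RPKM was -0.46 across the factor genes and -0.42 across all protein-coding genes tested.

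EEFSEC, with 5 further genes chosen after their values were seen, varied between libraries in a way that the groups do not describe. EEFSEC was at 4.91 scaled RPKM in WT DMSO 2, 5.28 and 4.10 in WT DMSO+EGF and 4.69 in AMPK KO cordycepin+EGF 3. It was at 2.09 in AMPK KO cordycepin+EGF 2, and in the other 7 libraries at 0.724 to 1.32, with WT DMSO 3 the lowest at 7 reads. So the 2 replicates of WT DMSO, and to a lesser degree those of AMPK KO cordycepin+EGF, stood on different sides. EEF1AKMT2 (Pearson's r with EEFSEC = 0.97 over the 12 libraries), EIF4EBP2 (0.94), EIF4A2 (0.90), EEF2K (0.88) and EIF2B3 (0.86) followed the same course. These r values describe 12 libraries that share groups and depth and carry no test. EIF4A2 was at 20.3 scaled RPKM in WT DMSO 2 and 7.92 in WT DMSO 3, and EIF2B3 at 12.5 and 4.36. The pattern is not particular to the factor genes, since 579 other protein-coding genes had r over 0.9 with EEFSEC and 210 had r under -0.9. Among the factor genes EIF1AD (-0.94), EIF5 (-0.85), EIF2AK2 (-0.79), EIF3F (-0.78) and EIF2B1 (-0.75) took the opposite course. The values given above for these genes vary with it, the cordycepin and interaction values of EIF5, EIF1AD and EIF2AK2 included, and its part in them was not tested.

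**Figure D5:**
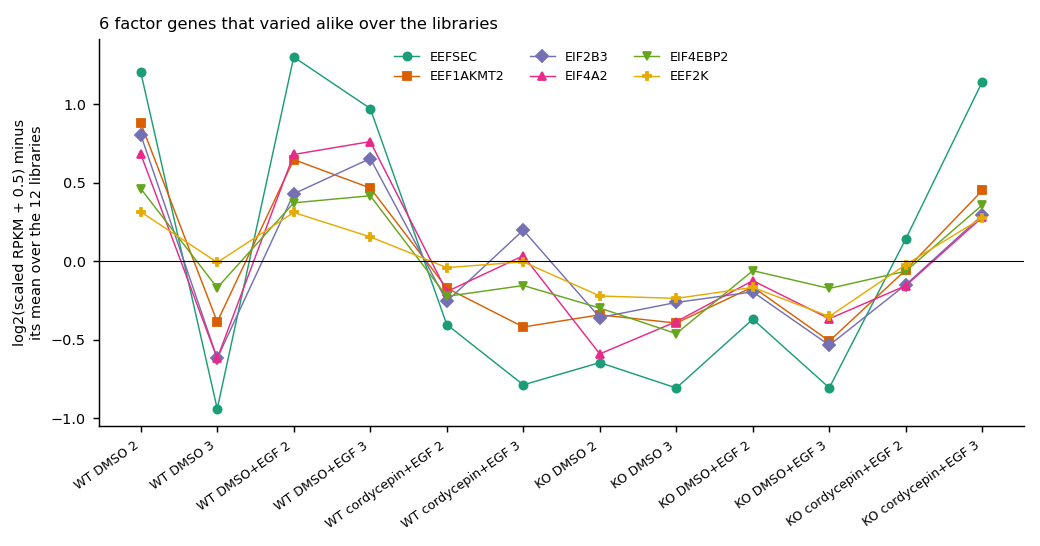
Log2(scaled RPKM + 0.5) of EEFSEC and the 5 factor genes most like it, each minus its own mean over the 12 libraries (horizontal axis, in group order). The lines only join the points of a gene; all 6 genes were above their mean in WT DMSO 2, both WT DMSO+EGF libraries and AMPK KO cordycepin+EGF 3, and 5 of the 6 were below it in WT DMSO 3, where EEF2K was near it.

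Genes outside the family that act beside these factors were set next to them as fixed lists. Of 25 partners in termination, ribosome rescue, poly(A) binding and factor modification, 22 were negative for cordycepin in AMPK KO. The median of the 25 was -0.24, where it was 0.06 over all genes tested. At an unadjusted p under 0.05, 8 of the 25 were lower, against 10.1% of all genes on that side. The 22 included ETF1, the stop codon reader (-0.59 ± 0.14, adjusted p = 0.0789), and DENR, which helps to reinitiate (-0.60 ± 0.14, adjusted p = 0.0795). None of the 25 was called there, against 0.471% of all genes. MCTS1, of the same list, went the other way, from 2.11 and 2.24 scaled RPKM with DMSO+EGF to 3.24 and 3.60 with cordycepin+EGF. Over the libraries DENR and MCTS1 had r of -0.83 and 0.75 with EEFSEC, and the part of that pattern in their values was not tested. In WT 13 of the 25 were positive and the median was 0.05. Of the 9 mitochondrial translation factors 5 were negative in AMPK KO and the median was -0.04. Between the lines over the 3 treatments HBS1L, which rescues stalled ribosomes, was higher in AMPK KO (0.59 ± 0.06, adjusted p = 0.00212), as was the mitochondrial release factor MTRF1L (0.61 ± 0.09, adjusted p = 0.00708). Each was the only gene of its list called in that comparison, where 4.34% of all genes were called.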

How the data were processed

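Ribosomal RNA-depleted, stranded libraries were sequenced by the authors in paired reads of 150 bases, mapped to GRCh38.p13 and counted per gene with Rsubread. The strand setting was not given in the sources used here. The authors left out replicate 1 of each condition. They deposited RPKM values for 26058 genes, and 2 further rows named no gene. Genes were matched to GENCODE release 44 (GRCh38). Dividing each RPKM by what 1 read was worth gave whole reads for 25082 genes (96.25%, within 0.05 of a read in all libraries). For factor genes this held for 65 of 67.

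Values were scaled to a common upper quartile and tested as log2(RPKM + 0.5) with limma 3.58.1 (R 4.3.3), using 1 linear model with an intensity trend over all 12 libraries by group, two-sided, with Benjamini-Hochberg adjustment over 22067 genes for each of 9 comparisons. A called gene had an adjusted p under 0.05. Fold changes on this scale understate changes of low genes. SE is the moderated standard error. Residual degrees of freedom were 6, or 8.96 moderated. Each group had 2 libraries, which the study calls biological replicates. The pipeline was run on simulated counts for EGF in AMPK KO only, with the same spread in every group. That setting lacked the replicate differences seen here, so it does not measure how the tests behave on these data. An alternative ran limma's voom on the recovered reads, with library sizes set by the upper quartile.

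By rule, the named genes were the called genes, a set of core factors, PRKAA1 and PRKAA2. Each comparison added up to 3 highest and 3 lowest values, at an unadjusted p under 0.05 and a mean RPKM of at least 1. Further genes, such as EIF5B and EIF2B1 for cordycepin in AMPK KO, were given outside this rule, and their choice was not fixed beforehand. The members, lists and tests were chosen with earlier results of these data known.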

Additional observations from a re-analysis of the deposited data

How the results depend on the processing

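The count of called factor genes was recomputed under 10 alternatives and without each library. Other pseudocounts, filters and scalings left it unchanged in all 9 comparisons, and so did the replicate block. Voom on the recovered reads gave 2 for cordycepin in WT, 2 for cordycepin in AMPK KO, 5 between the lines with DMSO, 6 between the lines over the treatments and 7 for the cordycepin interaction, for which the fit of only the groups compared gave 3. The cause was not tested. Over all genes voom called 8 for EGF in WT, 778 and 1051 for cordycepin in WT and AMPK KO, 1767 and 2217 between the lines with DMSO and over the treatments, 630 for cordycepin averaged and 2190 for its interaction, where limma on RPKM called 5, 1, 104, 97, 957, 213 and 0. Leaving out 1 library gave 0 to 5 for EGF in WT, 0 to 9 between the lines with DMSO and 1 to 9 over the treatments, with the highest counts without WT DMSO 2, WT DMSO 3 and WT DMSO 3 and the lowest over the treatments without AMPK KO DMSO+EGF 3. Over all genes these fits called 704, 3053, 2894 and 306. Leave-one-out fits with 1 library in a group assume that it varies like the others. Without a trend EEF1B2 lost its call (adjusted p = 0.0504). Adding reads of pseudogenes to their gene, chosen after seeing the data, changed no count, but took EIF4A1 from 0.64 to 0.11 for EGF in WT and from 0.61 to 0.23 between the lines with DMSO.

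Samples of different groups share only a replicate number. Deviations of same-numbered samples correlated with r from -0.122 to 0.322 over the pairs of groups, not over 0.1 in each, and with the replicate block the count over the treatments was 3. Depth was least in WT DMSO 3, where EEFSEC had 7 reads and EIF4EBP3 5, so small differences of low genes were not detectable there.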
